A study of Mus musculus with 8 samples.

Results

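Sterol synthesis, its control by the SREBP system and the movement of cholesterol in cells were examined through 33 genes in the livers of mice that overexpressed Nudt7. The genes were taken from a list by pathway step, and all 33 were found among the 34547 genes of the data. They comprised 8 enzymes that lead from acetyl-CoA to the isoprenoid diphosphates, 12 enzymes of squalene and sterol synthesis, 6 genes of SREBP control and 7 genes of cholesterol trafficking. Each passed the filter on low read counts, so that all 33 were among the 13678 genes tested.

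Messenger RNA was sequenced from the livers of 4 C57BL/6J mice given an adeno-associated virus, widely used to bring genes into hepatocytes, with the mouse Nudt7 gene and of 4 C57BL/6J mice given the same kind of virus with GFP, a fluorescent protein, as the control. Nudt7 encodes a hydrolase of peroxisomes that degrades coenzyme A and its acyl esters. Every animal was injected through the tail vein at 8 weeks of age with 2.5e+11 particles in 150 µl, was fasted for 24 h before the liver was taken 3 to 4 weeks later, and was then 11 to 12 weeks old. The control livers were therefore also fasted livers that carried a virus, and no fed or uninjected liver was part of the comparison. The labels name neither the promoter that drives the transgene nor the sex, litter or batch of the mice.

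Cholesterol is made from acetyl-CoA through mevalonate, isoprenoid diphosphates, squalene and lanosterol. When membranes of the endoplasmic reticulum hold little sterol, the escort protein SCAP carries SREBP-2 to the Golgi, where a pair of proteases releases its transcription factor domain, and this factor raises transcription of nearly every enzyme of the route; INSIG proteins hold SCAP back when sterol is plentiful. In liver this programme is known to be strong after feeding and weak in fasting, while oxysterol-activated LXR receptors drive genes of cholesterol export.

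Estimated reads per library ran from 11187806 to 23640734. Nudt7 stood at 1301, 1599, 3569 and 1555 CPM (reads per 1e+06 reads, with library sizes scaled by TMM) in the Nudt7 livers and at 60.7, 75.9, 79.9 and 72.9 CPM in the GFP livers, a 27.7-fold difference (log2 fold change 4.79, SE 0.33, edgeR quasi-likelihood adjusted p = 0.000122). Hepatocyte markers were abundant in each library, with summed levels of 54654 to 69972 CPM over the GFP livers and 45501 to 75703 CPM over the Nudt7 livers for the 5 of 6 markers in the annotation. Nudt7 replicate 3 stood apart from the other 7 libraries: it lay at 63.1 on the first principal component (36.3% of the variance), against -19.9 to 2.83, and its red blood cell markers summed to 1813 CPM, against 303 to 642 CPM. Estimates of the members that moved by over 1.5 times or changed sign without it are given below with and without it. Estimates of genes outside the member list are given with all livers only. Endothelial markers summed to 319 to 352 CPM in the GFP livers and 293 to 314 CPM in the Nudt7 livers, and cholangiocyte markers to 17.3 to 29.4 CPM and 31.6 to 42.5 CPM. These are named because their groups did not overlap. The sums of Kupffer cell (91.5 to 155 and 81.3 to 197 CPM), stellate, leukocyte, and adipocyte and pancreas markers overlapped between the groups. The part of these cell types in the values below was not tested; in whole liver, fewer cells of a type and less RNA per cell cannot be told apart.

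The promoter that carried a textbook sterol element, and those of 2 genes on which the results below turn, are shown first. Sequences are the RefSeq table's 250 bases before a start site (GRCm38.p6), 5′ to 3′ on the gene's strand, with matches in capitals. The motifs searched on both strands were TCACNCCAC, the core of the SREBP-binding sterol element, and CCAAT, the box bound by NF-Y, a known partner of SREBP; matches of the 2 motifs can overlap by at most 1 base. On the opposite strand CCAAT reads ATTGG, and distances are counted back from the RefSeq start. The Hmgcs1 window is shown because it was the one window among the members with the sterol element. The Mvk window and the windows at the starts of the 2 most abundant Insig2 transcripts were chosen after their values were seen.
Hmgcs1, chr13:119690101-119690350, plus strand: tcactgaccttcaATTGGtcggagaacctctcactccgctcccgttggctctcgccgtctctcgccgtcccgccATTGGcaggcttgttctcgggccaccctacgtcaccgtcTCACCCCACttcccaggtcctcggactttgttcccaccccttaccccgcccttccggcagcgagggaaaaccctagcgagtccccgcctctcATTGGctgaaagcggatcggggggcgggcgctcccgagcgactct
Mvk, chr5:114444019-114444268, plus strand: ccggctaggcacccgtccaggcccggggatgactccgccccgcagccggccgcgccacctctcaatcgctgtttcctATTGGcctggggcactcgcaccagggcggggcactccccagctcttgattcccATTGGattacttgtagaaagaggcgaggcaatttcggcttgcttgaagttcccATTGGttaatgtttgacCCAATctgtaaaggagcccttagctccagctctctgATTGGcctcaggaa
Insig2, start of Insig2-202, chr1:121332590-121332839, minus strand: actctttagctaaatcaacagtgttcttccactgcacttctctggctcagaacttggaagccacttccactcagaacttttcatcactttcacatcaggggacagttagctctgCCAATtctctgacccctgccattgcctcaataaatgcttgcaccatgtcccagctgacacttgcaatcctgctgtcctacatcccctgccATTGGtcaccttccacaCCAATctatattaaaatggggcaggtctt
Insig2, start of Insig2-201, chr1:121328025-121328274, minus strand: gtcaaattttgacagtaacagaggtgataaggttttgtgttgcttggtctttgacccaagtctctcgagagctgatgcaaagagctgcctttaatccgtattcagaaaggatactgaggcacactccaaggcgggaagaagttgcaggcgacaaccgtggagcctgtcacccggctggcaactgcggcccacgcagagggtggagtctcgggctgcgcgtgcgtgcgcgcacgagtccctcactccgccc

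The Hmgcs1 window held the letters TCACCCCAC 137 bases before the start, with NF-Y boxes 237, 176 and 45 bases before it. The Mvk window held 5 NF-Y boxes, at 173, 120, 67, 50 and 14 bases before the start, and no sterol element. The 2 Insig2 windows differed: that of the upstream start held 3 NF-Y boxes, at 136, 46 and 29 bases before it, and that of the downstream start held none. Of the 33 members, 26 had a window in the table, and 1 of the 26 (3.85%) held the sterol element, against 1.22% of the 27025 genes with windows. An NF-Y box was in 21 of the 26 (80.8%), against 37.5% of all genes with windows. The genes with windows were not limited to those that passed the filter on read counts, as all members did. The difference in share was not tested. By step, it was in 10 of 10 sterol-branch enzymes, 6 of 7 mevalonate enzymes, 3 of 6 genes of SREBP control and 2 of 3 trafficking genes. A gene was counted if any of its windows held a box, whether or not the liver used that start. Pmvk was counted for the start of Pmvk-204, which held 0.67% of the gene's TPM (a level scaled by length) in the GFP livers. A match of letters is a description of the window, and its absence says only that these letters were not found there.

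None of the 33 genes passed an adjusted p of 0.05 in the comparison of Nudt7 with GFP livers. Over all genes tested, edgeR's quasi-likelihood test called 6 higher (0.0439%) and 10 lower (0.0731%), and the smallest adjusted p of a member was 0.296, for Mvk. DESeq2 likewise called no member, against 88 genes higher (0.686%) and 64 lower (0.499%) of 12827. At an unadjusted p under 0.05, 3 members were higher (Hmgcs1, Mvk and Pmvk, all of the mevalonate route) and 0 lower, where 4.25% of all genes were higher and 4.03% lower. All 4 Nudt7 livers lay above all 4 GFP livers for 1 member (Mvk; 2.74% of all genes) and below them for 1 (Scap; 3.00% of all genes).

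The estimates had small sizes. Their signs by pathway step were not tested, and the medians by step were added after seeing the data. Of the 33, 22 had a positive log2 fold change, where 49.8% of all genes did, and the median was 0.11 against -0.00089 over all genes. In TPM the positive sign did not hold: 16 of 33 were positive and the median was -0.00889 (log2 of TPM plus 1). The median of all genes was lower on that scale too, at -0.10. The members' median minus that of all genes was 0.087 in TPM and 0.115 in the edgeR fit. Among the 20 enzymes of synthesis 17 were positive, with a median of 0.22; among the other 13 genes 8 were negative. The median of the members depended on single livers: it was 0.02 without Nudt7 replicate 2, with 18 of 33 positive, and 0.18 without GFP replicate 1. For 31 of the 33 genes the 95% interval of the fold change lay within a 2-fold difference in either direction, the exceptions being Mvk and Nsdhl, and for 21 it lay within 1.5-fold. Genes of 1 pathway are measured in the same livers and are not independent of each other, so these counts are a description.

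**Figure D1:**
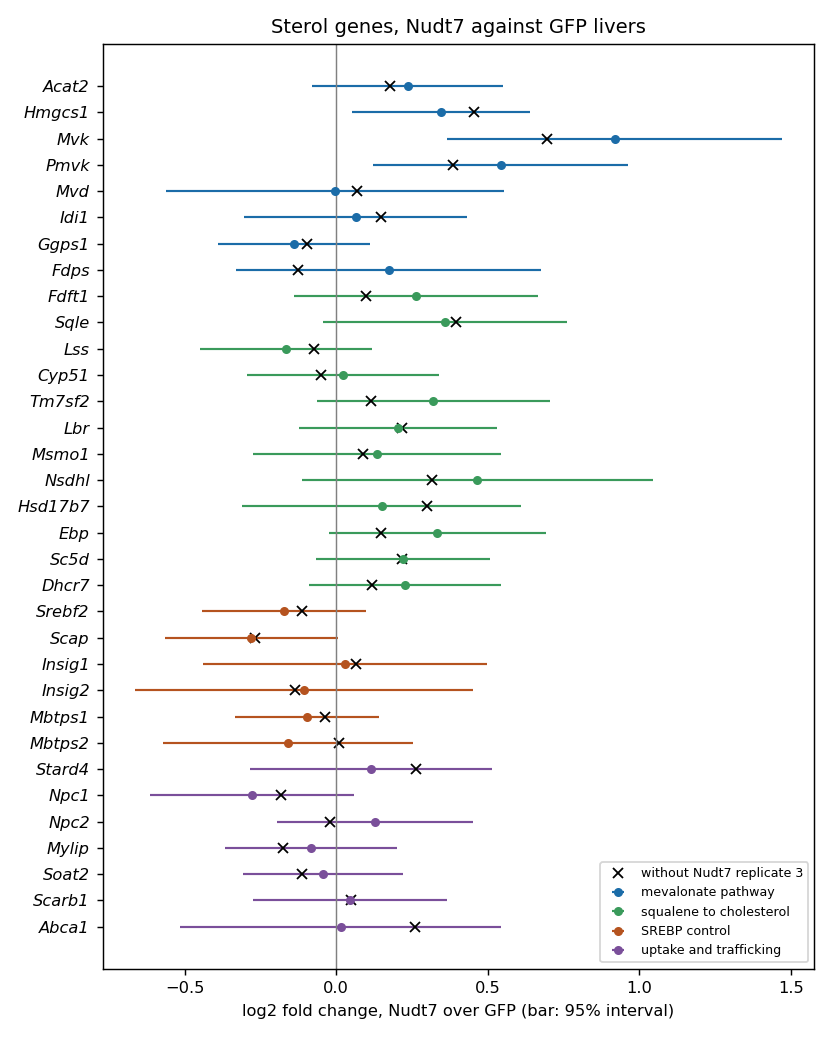
Log2 fold change of Nudt7 over GFP livers for each of the 33 genes in pathway order, with 95% intervals (bars) from edgeR's quasi-likelihood fit of 4 livers per group; crosses mark the value without Nudt7 replicate 3. The intervals of Hmgcs1, Mvk and Pmvk lay above 0, the other 30 spanned it, and the enzymes of synthesis were mostly to the right of 0.

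The 3 intervals above 0 were those of Hmgcs1, Mvk and Pmvk, which act early in the mevalonate route; that of Acat2, at its first step, spanned 0. Hmgcs1 (chr13:119690379-119708260, plus strand) encodes the cytosolic HMG-CoA synthase, which joins acetoacetyl-CoA and acetyl-CoA. Its level was 94.1, 91.05, 65.7 and 83.0 CPM in Nudt7 replicates 1 to 4 and 69.8, 59.0, 66.0 and 67.9 CPM in the GFP livers. Nudt7 replicates 1, 2 and 4 were above all GFP livers, and replicate 3 was within their range. The means were 83.5 ± 12.7 and 65.7 ± 4.71 CPM (SD, n = 4 each), 1.27-fold, and the log2 fold change was 0.35 (SE 0.13, 95% interval 0.05 to 0.64, edgeR adjusted p = 0.525). Without Nudt7 replicate 3 it was 0.46 (edgeR adjusted p = 0.107), which was the smallest adjusted p of any member under any setting.

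Mevalonate kinase, encoded by Mvk (chr5:114444269-114460591, plus strand), phosphorylates mevalonate. Mvk had 2.65, 2.56, 4.61 and 2.80 CPM in the Nudt7 livers and 1.38, 1.83, 1.59 and 1.83 CPM in the GFP livers. All 4 Nudt7 livers were above all 4 GFP livers, with replicate 3 highest. Its means were 3.16 ± 0.974 and 1.66 ± 0.213 CPM, 1.89-fold (log2 0.92, SE 0.25, 95% interval 0.37 to 1.47, edgeR adjusted p = 0.296), and without Nudt7 replicate 3 the log2 fold change was 0.69 (edgeR adjusted p = 0.370). These levels rested on 19 to 56 reads per library, and the share of counting error in their spread was not tested.

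Phosphomevalonate kinase, the product of Pmvk (chr3:89454541-89469013, plus strand), adds the next phosphate. It was measured at 11.1, 9.27, 16.0 and 11.5 CPM in the Nudt7 livers and 6.23, 8.32, 8.87 and 9.39 CPM in the GFP livers. Replicate 3 was again highest, and Nudt7 replicate 2 lay just below the highest GFP liver. The fitted log2 fold change was 0.54 (SE 0.19, 95% interval 0.12 to 0.96, edgeR adjusted p = 0.470), from 12.0 ± 2.85 and 8.20 ± 1.38 CPM, and it was 0.38 without Nudt7 replicate 3 (edgeR adjusted p = 0.548).

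**Figure D2:**
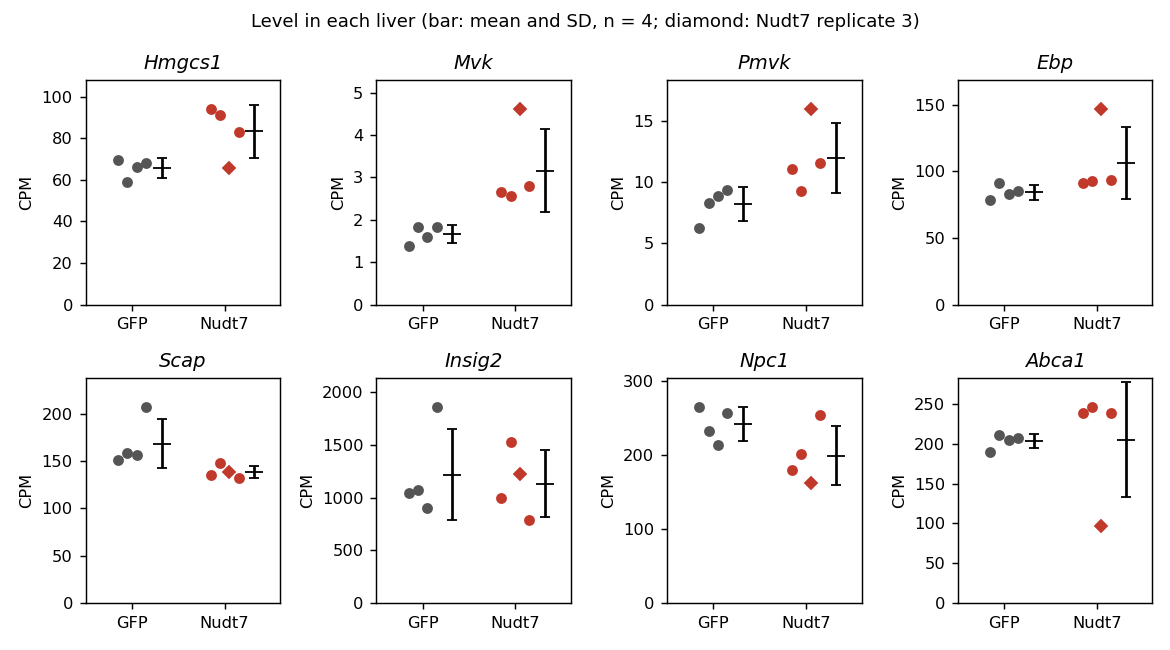
Level in CPM (linear axes from 0) of 8 genes in each of the 4 Nudt7 and 4 GFP livers, 1 point per liver, with bars for the mean and SD; diamonds mark Nudt7 replicate 3. Mvk was higher and Scap lower in every Nudt7 liver than in any GFP liver, and Abca1 was at 97.1 CPM in Nudt7 replicate 3 against 190.2 to 246 CPM elsewhere.

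The other enzymes of this branch gave smaller values. Mvd, the decarboxylase that yields isopentenyl diphosphate, had a log2 fold change of -0.00 (SE 0.25; 0.07 without replicate 3) at 1.37 to 2.19 CPM in the Nudt7 livers and 1.32 to 2.01 CPM in the GFP livers. The isomerase Idi1 was at 14.7 to 19.6 and 12.4 to 21.5 CPM (0.06, SE 0.17; 0.15 without replicate 3), and Ggps1, which makes geranylgeranyl diphosphate for protein prenylation, at 13.8 to 15.2 and 14.9 to 17.6 CPM (-0.14, SE 0.11). For both genes the ranges of the groups overlapped. Acat2, the thiolase that makes acetoacetyl-CoA, had 19.4, 13.8, 20.3 and 17.2 CPM in the Nudt7 livers and 16.6, 15.4, 14.4 and 13.6 CPM in the GFP livers (0.24, SE 0.14). Its near copy Acat3 shares 43.7% of its 31-base words, so that the split of reads between them is uncertain.

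Fdps, the farnesyl diphosphate synthase at the branch point to sterols, stood at 11.2, 12.7, 21.3 and 8.86 CPM in the Nudt7 livers and 11.8, 11.5, 11.8 and 12.7 CPM in the GFP livers. The GFP livers were close together, and the positive log2 fold change of 0.17 (SE 0.23) came with Nudt7 replicate 3, without which it was -0.13. The edgeR adjusted p of these 5 genes ran from 0.681 for Acat2 to 0.998 for Mvd, that of Fdps being 0.843. Over the 8 mevalonate enzymes 6 estimates were positive, with a median of 0.20, and 0.16 without Nudt7 replicate 3.

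In the 12 enzymes from squalene to cholesterol 11 estimates were positive, with a median of 0.22, and none had an unadjusted p under 0.05. The range ran from -0.16 for Lss to 0.46 for Nsdhl. Without Nudt7 replicate 3 the median was 0.13 and 10 were positive. No gene of this branch had groups that did not overlap.

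Squalene synthase (Fdft1) was at 21.4, 17.1, 30.0 and 20.1 CPM in the Nudt7 livers and 14.6, 19.2, 22.3 and 17.8 CPM in the GFP livers (log2 fold change 0.26, SE 0.18; 0.10 without replicate 3). Sqle, the squalene epoxidase and a controlled step of the route, was at 6.48, 9.98, 7.16 and 6.65 CPM against 6.99, 5.48, 5.69 and 5.39 CPM. Only GFP replicate 1 reached the Nudt7 range for Sqle, and its log2 fold change was 0.36 (SE 0.18, 95% interval -0.04 to 0.76, edgeR adjusted p = 0.642), or 0.39 without replicate 3. Lss, which closes the rings to lanosterol, had 17.5 to 23.9 CPM in the Nudt7 livers and 22.2 to 25.9 CPM in the GFP livers. It was the 1 negative estimate of the branch, at -0.16 (SE 0.13); without Nudt7 replicate 3 it was -0.07, and that of Cyp51 was then negative as well.

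Cyp51, the lanosterol demethylase, gave 0.02 (SE 0.14), from 20.2 ± 3.65 and 19.8 ± 1.26 CPM, and -0.05 without replicate 3. The 2 sterol reductases that act on the same double bond, Tm7sf2 and Lbr, gave 0.32 (SE 0.18) and 0.20 (SE 0.15). Tm7sf2 was at 51.4, 50.2, 79.2 and 42.6 CPM in the Nudt7 livers and 44.0, 44.7, 41.0 and 49.0 CPM in the GFP livers, so that its estimate rested largely on replicate 3 and was 0.11 without it. Lbr, which is also a receptor for lamins of the nuclear envelope, was at 10.1, 7.86, 8.40 and 7.43 CPM against 6.92, 7.08, 7.95 and 7.35 CPM, and its estimate was 0.22 without replicate 3.

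Removal of the methyl groups at carbon 4 takes 3 of the enzymes. Msmo1, the oxidase, was at 12.2 to 21.02 CPM in the Nudt7 livers and 11.8 to 17.3 CPM in the GFP livers (0.13, SE 0.19; 0.09 without replicate 3). Nsdhl, the decarboxylating dehydrogenase, was at 5.23, 7.68, 8.40 and 4.30 CPM against 5.26, 6.21, 3.60 and 3.48 CPM. Livers of both groups were spread over more than a 1.5-fold range for Nsdhl, and its log2 fold change was 0.46 with a 95% interval of -0.11 to 1.04 (SE 0.26, edgeR adjusted p = 0.667). Hsd17b7, the keto reductase, was at 66.9, 88.5, 46.1 and 65.1 CPM in the Nudt7 livers and 72.9, 51.8, 44.1 and 71.1 CPM in the GFP livers (0.15, SE 0.21). Its value was 0.30 without Nudt7 replicate 3 and -0.02 without Nudt7 replicate 2.

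The last steps fall to Ebp, Sc5d and Dhcr7. Ebp (chrX:8185329-8193512, minus strand), the isomerase of the ring double bond, was at 91.2, 92.9, 147 and 93.9 CPM in the Nudt7 livers and 78.3, 91.2, 82.7 and 85.1 CPM in the GFP livers. The estimate was 0.33 (SE 0.16, 95% interval -0.03 to 0.69, edgeR adjusted p = 0.624) and 0.15 without replicate 3, whose level stood far above the others. Sc5d, the desaturase, was at 122, 95.6, 121 and 131 CPM against 108, 96.7, 108 and 90.3 CPM. Here 3 of 4 Nudt7 livers exceeded all GFP livers, the estimate was 0.22 (SE 0.13), and it was the same, 0.22, without replicate 3. Dhcr7, whose product makes cholesterol from 7-dehydrocholesterol, was at 33.8, 41.2, 47.5 and 31.4 CPM against 31.98, 30.5, 31.95 and 36.9 CPM (0.23, SE 0.14; 0.12 without replicate 3). Over the 20 enzymes of synthesis the median was 0.15 without Nudt7 replicate 3, and 16 were positive.

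Medians per liver showed how evenly the livers contributed. For each gene the log2 CPM of a liver was set against the mean of the GFP livers, a reference that contains the GFP livers and so draws their values toward 0. The median over the 20 enzymes of synthesis was 0.20, 0.18, 0.29 and 0.08 in Nudt7 replicates 1 to 4 and -0.02, 0.01, -0.02 and 0.01 in the GFP livers. The 4 Nudt7 livers were all above the 4 GFP livers on this summary, replicate 4 by the least. Over all genes tested the groups were separate as well, in the other direction and by less. The medians were then -0.031 to -0.00097 in the Nudt7 livers and -0.00019 to 0.0084 in the GFP livers. Separation as such was therefore not particular to these enzymes, and the difference in its size was not tested. The 8 mevalonate enzymes gave 0.35, 0.15, 0.22 and 0.19 in the Nudt7 livers, and the 12 later enzymes gave 0.17, 0.18, 0.29 and -0.02. Nudt7 replicate 4 was within the GFP range for the later enzymes but above it for the earlier ones.

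**Figure D3:**
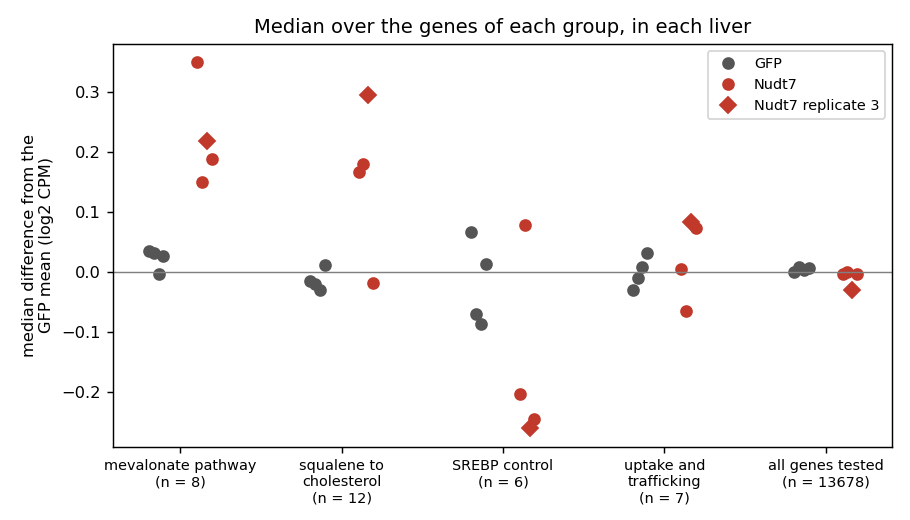
Median over the genes of each step of the difference between a liver's log2 CPM and the mean of the GFP livers, 1 point per liver, for the mevalonate enzymes (8), the squalene to cholesterol enzymes (12), the SREBP control genes (6), the trafficking genes (7) and all genes tested; diamonds mark Nudt7 replicate 3. In the mevalonate enzymes the Nudt7 livers were at 0.15 to 0.35; in SREBP control 3 of them were at -0.20 to -0.26 and replicate 2 at 0.08.

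The 6 genes of SREBP control had mostly negative estimates, 5 of 6, with a median of -0.13, and none had an unadjusted p under 0.05. Medians per liver were -0.20, 0.08, -0.26 and -0.25 in the Nudt7 livers and 0.07, -0.07, -0.09 and 0.01 in the GFP livers. The median of the estimates was -0.07 with 2 positive without Nudt7 replicate 3, and -0.25 without Nudt7 replicate 2. Srebf2, the gene of SREBP-2 itself, was at 30.2, 38.1, 29.6 and 34.7 CPM in the Nudt7 livers and 40.4, 32.6, 38.6 and 37.8 CPM in the GFP livers. The ranges overlapped, and the log2 fold change was -0.17 (SE 0.12, 95% interval -0.44 to 0.10, edgeR adjusted p = 0.713), or -0.11 without Nudt7 replicate 3. These are transcript levels and do not measure cleavage of the protein.

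Scap (chr9:110333288-110384950, plus strand) was at 136, 148, 138 and 132 CPM in the Nudt7 livers and 151, 158, 156 and 207 CPM in the GFP livers. The groups did not overlap, although Nudt7 replicate 2 and GFP replicate 1 were close, and GFP replicate 4 was well above its group. Its log2 fold change was -0.28 (SE 0.13, 95% interval -0.57 to 0.01, edgeR adjusted p = 0.600), from 139 ± 6.71 and 168 ± 25.9 CPM, and it was -0.15 without GFP replicate 4. Insig1, a sterol-sensing anchor of SCAP and itself a target of SREBP, was at 25.2, 28.2, 22.6 and 19.5 CPM against 34.3, 24.0, 18.5 and 16.8 CPM. The GFP livers varied more than the Nudt7 livers here, and the estimate was 0.03 (SE 0.21), or 0.06 without Nudt7 replicate 3.

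Insig2 (chr1:121304353-121332589, minus strand), the other anchor, had the highest level per length of the members. A liver form of its transcript is known to be induced by fasting. It was at 993, 1527, 1228 and 784 CPM in the Nudt7 livers and 1048, 1074, 899.5 and 1857 CPM in the GFP livers. A single liver, GFP replicate 4, was highest and Nudt7 replicate 4 lowest, and the spread within each group exceeded the difference between the means of 1133 ± 319 and 1219.7 ± 432 CPM. The log2 fold change was -0.11 (SE 0.25, 95% interval -0.66 to 0.45, edgeR adjusted p = 0.917) and was 0.19 without GFP replicate 4. The proteases that cleave SREBP, Mbtps1 and Mbtps2, gave -0.10 (SE 0.11) and -0.16 (SE 0.19). Mbtps1 was at 51.5, 58.1, 48.7 and 58.6 CPM in the Nudt7 livers and within 55.7 to 59.7 CPM in the GFP livers, and its estimate was -0.04 without Nudt7 replicate 3. Mbtps2 was at 10.3 CPM in Nudt7 replicate 3 and at 14.5 to 20.1 CPM in the other 7 livers, and its estimate was 0.01 without that replicate. It shares 30.97% of its 31-base words with other genes, chiefly Yy2, which overlaps it.

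The transcripts of these genes were compared in TPM, which divides by length. Insig2-201 (ENSMUST00000003818.13, 2697 bases) held 42.4% of the gene's TPM in the GFP livers and 40.9% in the Nudt7 livers, and Insig2-202 (ENSMUST00000071064.12, 1292 bases), which starts further upstream, held 26.6% and 27.2%. In TPM they were at 580 ± 192 and 364 ± 109 in the GFP livers and at 493 ± 118 and 328 ± 145 in the Nudt7 livers. The share of Insig2-202 was 24.4% to 28.5% in the GFP livers and 22.0% to 29.8% in the Nudt7 livers, so the ranges of the groups overlapped. Insig2-209 (204 bases), which starts close to Insig2-202, held a further 16.2% in the GFP livers and 17.5% in the Nudt7 livers. Shares by transcript are therefore not shares by start site. Insig1 came mostly from 1 transcript, Insig1-201, with 91.7% and 92.1%.

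For Hmgcs1, Hmgcs1-201 (ENSMUST00000179869.2) held 78.7% of TPM in the GFP livers and 75.3% in the Nudt7 livers, and Pmvk-201 (ENSMUST00000029564.11) held 90.4% and 90.8% of Pmvk. Mvk differed: Mvk-201 (ENSMUST00000043760.14, 1660 bases) was at 1.17, 0.533, 1.56 and 1.62 TPM in the Nudt7 livers and at 0, 0.505, 0 and 0.515 TPM in the GFP livers. That was 49.0% of the gene's TPM against 14.4%, while Mvk-205 held 5.94% against 34.2% and Mvk-202 10.9% against 24.3%. The 19 to 56 reads behind the gene were shared among 6 transcripts that start at nearly the same place, and this split was not tested.

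Among the trafficking genes 4 of 7 estimates were positive, with a median of 0.01, and no groups were separate. The median was between -0.04 and 0.04 when single livers were left out, and -0.02 without Nudt7 replicate 3. Npc1 and Npc2 pass cholesterol out of lysosomes. Npc1 was at 180.2, 201, 162 and 254 CPM in the Nudt7 livers and 264, 233, 214 and 257 CPM in the GFP livers. Nudt7 replicates 1 to 3 were below all GFP livers and replicate 4 was among them, with a log2 fold change of -0.28 (SE 0.15, 95% interval -0.61 to 0.06, edgeR adjusted p = 0.664). Its value was -0.18 without Nudt7 replicate 3 and -0.42 without Nudt7 replicate 4. Npc2 was at 47.7 CPM in Nudt7 replicate 3 and at 30.0 to 35.1 CPM in the other 7 livers, which gave 0.13 (SE 0.15), or -0.02 without that replicate.

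Abca1 (chr4:53030787-53159895, minus strand), the exporter that loads cholesterol onto nascent HDL, was at 239, 246, 97.1 and 239 CPM in the Nudt7 livers and 190.2, 211, 204 and 207 CPM in the GFP livers. The levels of 3 Nudt7 livers were above every GFP liver and that of replicate 3 was below them all. The log2 fold change was 0.01 (SE 0.24, 95% interval -0.52 to 0.55, edgeR adjusted p = 0.990), and 0.26 without replicate 3 (edgeR adjusted p = 0.399). Scarb1, the HDL receptor that takes up cholesteryl ester, was at 88.6 to 125 CPM and 86.4 to 121 CPM (0.04, SE 0.15). Soat2, which esterifies cholesterol, was at 23.3 to 29.6 and 24.2 to 28.6 CPM (-0.04, SE 0.12; -0.11 without replicate 3). Mylip, a ubiquitin ligase for lipoprotein receptors, was at 22.8, 22.3, 28.7 and 21.4 CPM against 24.6, 25.7, 22.5 and 27.9 CPM (-0.08, SE 0.13), and at -0.18 without replicate 3. Stard4, a soluble sterol carrier, was at 11.1 CPM in Nudt7 replicate 3, lowest of the 8, and at 16.4 to 18.7 CPM in the other Nudt7 livers, against 11.9 to 17.9 CPM in the GFP livers (0.11, SE 0.18; 0.26 without replicate 3).

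Nudt7 replicate 3 was the highest of the 8 livers for 13 of the 33 genes and the lowest for 8, and its values differed by transcript length. Genes were divided into 3 equal classes, with upper limits of 1810 and 3084 bases for the short and middle ones. Replicate 3 minus the mean of the other Nudt7 livers had a median of 0.42, 0.03 and -0.36 on the log2 scale over all short, middle and long genes, and of 0.66, 0.08 and -0.36 over the 7, 17 and 9 members in these classes. It was 0.97 for Fdps, 0.76 for Mvk, 0.72 for Tm7sf2 and 0.66 for Ebp, all short, and -1.31 for Abca1, the longest member. The medians of the log2 fold change between the groups were 0.11, -0.00 and -0.08 over all genes of the classes and 0.32, 0.13 and -0.10 over the members. With each library's own trend in length removed by a smooth curve before the fit, the median was 0.22 over the 20 enzymes with 17 positive, and -0.11 over the genes of SREBP control.

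**Figure D4:**
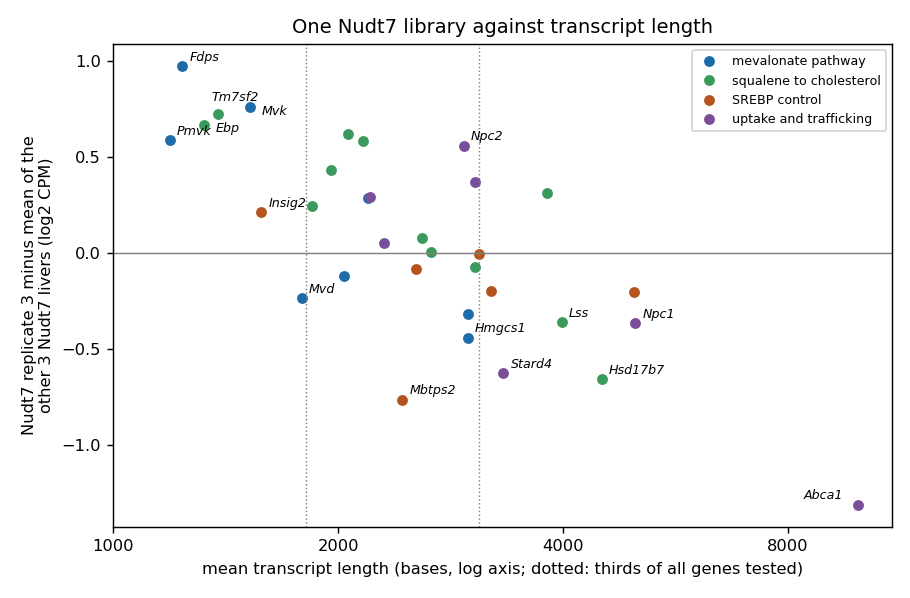
Log2 difference between Nudt7 replicate 3 and the mean of the other Nudt7 livers against mean transcript length in bases (log axis), 1 point for each of the 33 genes, coloured by pathway step, with dotted lines at the limits of the length classes. Most short genes lay above 0, Fdps highest at 0.97, and the longest, Abca1, lay at -1.31.

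Levels of different genes were compared in TPM over the GFP livers. Insig2 was highest at 1367 ± 381 TPM (SD, n = 4), followed by Ebp at 109 ± 4.77, Scap at 78.7 ± 10.5, Npc1 at 69.7 ± 5.71, Scarb1 at 67.1 ± 14.5, Sc5d at 62.8 ± 6.21 and Tm7sf2 at 57.9 ± 1.48 TPM. These 7 were over 50 TPM, the median of the members was 14.3 TPM, and 5 were under 5 TPM: Lbr (4.996 ± 0.364), Nsdhl (3.36 ± 0.983), Sqle (2.87 ± 0.317), Mvk (1.78 ± 0.141) and Mvd (1.40 ± 0.320). Members of 1 pathway were thus spread over a wide range, with Ebp and Sc5d of the last steps high and mevalonate kinase and decarboxylase low. These sums count every transcript of a gene, also those that keep an intron. For Ebp such transcripts were Ebp-204 at 27.5 and Ebp-202 at 9.95 TPM in the GFP livers. By main transcript alone Ebp-201 was at 63.8, Npc1-201 at 63.7 and Scap-201 at 54.9 TPM, so the order depends on the transcripts counted. Of the 32 pairs of neighbours in this order, 6 did not overlap over the GFP livers, namely those after Insig2, Ebp, Tm7sf2, Hmgcs1, Lbr and Sqle; the order of the other neighbours was within their spread. In the Nudt7 livers Insig2 was at 1205 ± 404 TPM and Mvk at 2.49 ± 0.393 TPM. On this scale the median of all genes was itself -0.10 between the groups (log2 of TPM plus 1). Mbtps1 was at 20.8 ± 4.599 TPM in the Nudt7 livers and 26.0 ± 0.472 in the GFP livers. Mylip was at 10.6 ± 0.415 and 12.5 ± 0.512 TPM, and Lss at 7.14 ± 0.852 and 9.57 ± 2.02 TPM. In the edgeR fit the log2 fold changes of Mbtps1, Mylip and Lss were -0.10, -0.08 and -0.16. These genes were singled out after their values were seen, and no member was called in TPM.

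**Figure D5:**
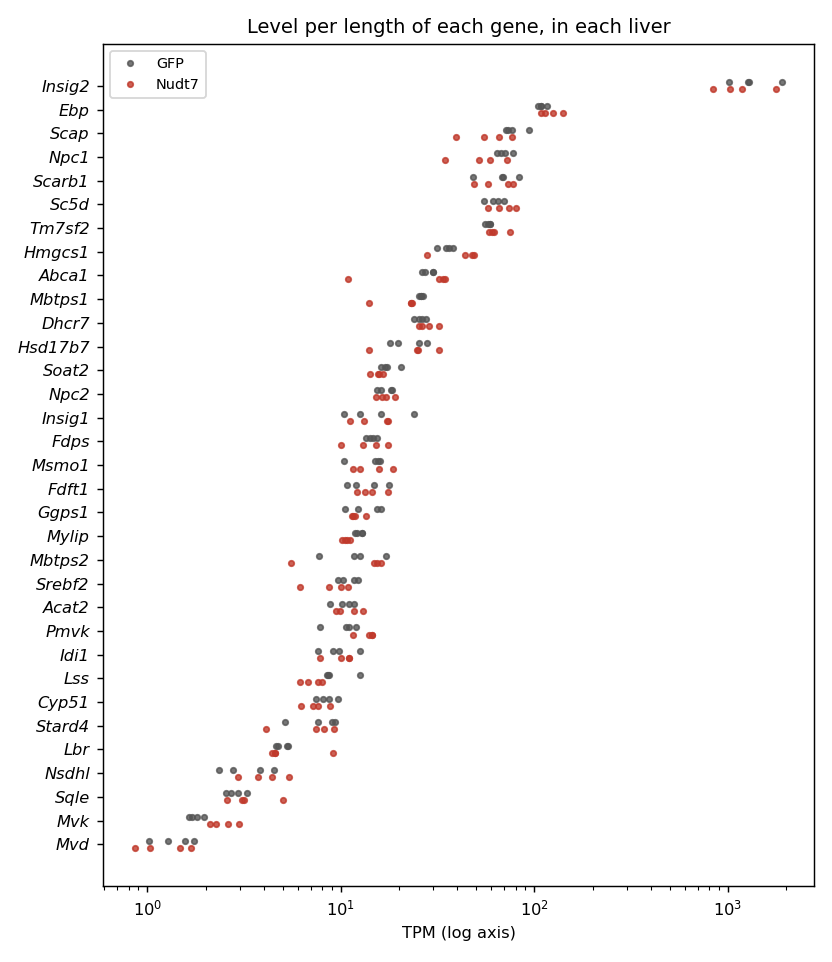
Level of each of the 33 genes in TPM (log axis), ordered by the mean of the GFP livers, 1 point per liver and group. Insig2, at a mean of 1367 TPM, stood far above Ebp at 109 TPM, and Mvk and Mvd were the lowest.

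Other genes of the pathway were taken from 4 lists, and none of their genes was called by edgeR. Of 11 genes that use isoprenoids 6 had positive estimates (median 0.03), and 0 had an unadjusted p under 0.05 in either direction. Pdss1, which makes the ubiquinone side chain, had 0.28 (SE 0.22, edgeR adjusted p = 0.729), Coq2 0.15 and Dhdds 0.13. Dhdds was at 24.8 CPM in Nudt7 replicate 3 and at 18.8 to 21.6 CPM in the other livers. Of 10 genes that control degradation of sterol enzymes or retain SREBP 5 were positive (median -0.00), again with 0 at an unadjusted p under 0.05. Tmem97, a sterol-responsive membrane protein, was at 0.33 (SE 0.17, edgeR adjusted p = 0.642), and Pgrmc1 at 0.30. Both were highest in Nudt7 replicate 3, at 54.0 and 855 CPM, against 26.1 to 35.1 and 487 to 625 CPM in the other livers.

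Of 8 genes of the LXR axis 5 were positive (median 0.11), with 1 higher and 0 lower at an unadjusted p under 0.05. That gene was Srebf1, which encodes SREBP-1 and is driven by LXR and insulin: it was at 24.6, 30.4, 27.8 and 19.0 CPM in the Nudt7 livers and 13.8, 15.1, 15.9 and 15.5 CPM in the GFP livers. All Nudt7 livers were above all GFP livers, with a log2 fold change of 0.75 (SE 0.15, edgeR adjusted p = 0.109; DESeq2 adjusted p = 0.00318). Lpcat3 was at 0.30 and Nr1h3, the gene of LXR alpha, at 0.21. Nr1h3 was at 95.2 CPM in Nudt7 replicate 3 and at 58.3 to 62.9 CPM in the other livers. Of 14 further sterol transport genes 6 were positive (median -0.06), with 1 higher and 1 lower at an unadjusted p under 0.05. Lipa, the lysosomal lipase that frees cholesterol from its esters, was at 267, 259, 341 and 247 CPM against 228, 212, 195 and 244 CPM (0.34, SE 0.14, edgeR adjusted p = 0.559). Vldlr, a lipoprotein receptor, was at 3.12, 1.24, 1.48 and 3.91 CPM against 4.22, 4.45, 4.27 and 7.95 CPM (-1.09, SE 0.36, edgeR adjusted p = 0.439), and Stard3 was at -0.25. The groups did not overlap for Lipa or for Vldlr. Over all genes tested, 2.74% were higher and 3.00% lower without overlap. At an unadjusted p under 0.05 by edgeR, 4.25% of all genes were higher and 4.03% lower. The genes named here were those of smallest unadjusted p in their lists.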

How the data were processed

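Liver mRNA of 8 mice was sequenced in 1 library per mouse. The submitters' processing notes name Salmon, FastQC, DESeq2 and build GRCm38; for versions, index, options and use of strand, the settings were not given in the sources used here. Per the file headers, each deposited file holds estimated counts, which are Salmon's unnormalized read numbers, the authors' TPM and the effective length of each transcript. Transcripts were named by GENCODE M21 (GRCm38): 107987 of 109282 (98.8%), the others holding 0.552% to 1.06% of reads.

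Estimated counts were summed per gene and rounded, and TPM was summed. Groups were compared by the quasi-likelihood test of edgeR (edgeR 4.0.16, limma 3.58.1, R 4.3.3; TMM scaling, filterByExpr, robust, two-sided, Benjamini-Hochberg adjustment over 13678 genes, threshold 0.05, no covariate), tested on simulated data. DESeq2 1.42.0, other filters and scalings, limma-voom, effective-length offsets, removal of a length trend (loess span 0.5), limma on log2(TPM + 1 or 0.1) and leaving out each liver were alternatives. CPM use TMM-scaled sizes, and the intervals include variation between livers. The common biological coefficient of variation was 0.196. Replicates are numbered in accession order, and the labels pair no animals.

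The members and lists were chosen with earlier results of these data known. All 33 members are named, with the 3 genes of smallest unadjusted p in each of 4 further lists, transcripts holding at least 20% of TPM of Hmgcs1, Mvk, Pmvk, Insig1 and Insig2, and promoters with a sterol element. One gene that this rule names is not reported here. Between genes, 31-base words were compared: 7 members share over 10% of theirs with other genes (Acat2, Mbtps2, Fdps, Idi1, Fdft1, Tm7sf2 and Ggps1), and their counts are uncertain. Hmgcs1, Ggps1, Fdft1, Cyp51, Mvd, Lbr and Npc1 are among those that overlap a gene on the opposite strand.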

Additional observations from a re-analysis of the deposited data

Results flagged for a closer look

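Each gene's 4 levels within a group were screened for 1 liver set apart from the other 3, by the gap to the nearest liver relative to the group's range (Dixon's test at its 95% level). Chance marks about 1 in 20 groups; 6 of 66 were marked.

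In Nudt7 replicate 3, Mvk was at 4.61 CPM (nearest liver of its group 2.80), Ebp at 147 CPM (nearest 93.9) and Abca1 at 97.1 CPM (nearest 239). Mvk and Ebp are short transcripts and Abca1 the longest of the members, and over all genes this library ran 0.42 above the other Nudt7 livers for short transcripts and 0.36 below for long ones (-0.36 on the log2 scale). In the GFP livers, Scap was at 207 CPM in replicate 4 (nearest 158), Msmo1 at 11.8 CPM in replicate 4 (nearest 16.4) and Mbtps2 at 20.1 CPM in replicate 1 (nearest 17.1).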

How the results depend on the processing

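No member passed an adjusted p of 0.05 in any of the 9 other settings or with any of the 8 livers left out. Over all genes the calls were 6 higher and 10 lower, against 88 and 64 with DESeq2, 23 and 12 with the length trend removed, 15 and 12 without the filter, 4 and 4 with limma-voom, 4 and 6 with effective-length offsets, 3 and 5 in TPM, and 1 to 8 and 1 to 12 with a liver left out; the causes were not tested. Members higher at an unadjusted p under 0.05 numbered 3, but 5 with the length trend removed (Sqle and Ebp added), 1 in TPM with a pseudocount of 0.1, and 3 to 5 with a liver left out. Members lower numbered 0, but 1 (Scap) with protein-coding transcripts only and in TPM with either pseudocount, and 0 to 1 with a liver left out (Scap without Nudt7 replicate 3, Npc1 without Nudt7 replicate 4). The members' median of 0.11 was 0.02 to 0.18 with a liver left out; it was -0.00889 in TPM with a pseudocount of 1 and -0.00941 with 0.1, where the median of all genes was -0.10 and -0.12. The medians by pathway step were added after seeing the data. That of the trafficking genes, 0.01, was -0.0469 with voom, -0.147 and -0.159 in TPM with pseudocounts of 1 and 0.1, and -0.0352 to 0.0395 with a liver left out. Of 297 member values under the other settings 22 changed sign: Mvd 0.00549 with relative log expression scaling and 0.00627 with DESeq2; with voom Cyp51 -0.00222 and Abca1 -0.0807; with effective-length offsets Cyp51 -0.0529 and Mbtps2 0.189; and in TPM with pseudocounts of 1 and 0.1 Fdps -0.0731 and -0.0797, Cyp51 -0.173 and -0.193, Insig1 -0.0395 and -0.0396, Mbtps2 0.0247 and 0.0193, Stard4 -0.109 and -0.127, Npc2 -0.00889 and -0.00941, Scarb1 -0.0576 and -0.0583, Abca1 -0.147 and -0.159. With a liver left out, 26 of 264 changed sign; the ranges were Abca1 -0.0835 to 0.259, Cyp51 -0.0495 to 0.134, Fdps -0.127 to 0.334, Hsd17b7 -0.0160 to 0.299, Idi1 -0.0407 to 0.216, Insig1 -0.0891 to 0.287, Insig2 -0.284 to 0.187, Mbtps2 -0.262 to 0.00977, Mvd -0.128 to 0.0977, Npc2 -0.0215 to 0.209, Scarb1 -0.0306 to 0.133 and Soat2 -0.112 to 0.0120. The other 20 members kept their sign throughout. Depth limits Mvd and Mvk most, with 18 to 39 and 19 to 56 reads per library.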
